A study of Mus musculus with 12 samples.

Results

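The step from DN2a to DN2b is the stage at which an early T cell precursor loses the ability to become another kind of blood cell. Open chromatin was compared across this step in mouse cells by DNase-seq, which maps sites where DNA in the nucleus is accessible to DNase I. The comparison used the 2 libraries labelled DN2a and the 2 labelled DN2b, out of 12 libraries in the series. Sites were called gained when both DN2b libraries and no DN2a library had a peak, and lost in the reverse case. Of 44316 sites, 2025 were gained and 2015 were lost.

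Both populations came from LSK cells (lineage-negative, SCA1-positive, KIT-positive stem and progenitor cells) of C57BL/6J marrow that were cultured on the Notch ligand Delta1 with SCF, FLT-3 ligand, IL-6, IL-11 and IL-7. The study's methods define DN2a as KIT++CD44+CD25+ cells and DN2b as KIT+CD44lo CD25+ cells, so the sort itself separated the groups by KIT and CD44. The other libraries served as references: 3 of LSK cells as isolated, 2 of DN1 cells (KIT++CD44+CD25-) from the same ligand with the other cytokines but without IL-7, and 3 of LSK cells cultured on human IgG in place of the ligand. The methods take precursors from each LSK isolate, so a DN2a and a DN2b library may come from the same isolate, which the labels leave unstated. Each DN2 group has n = 2.

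A developing T cell needs Notch signals and a set of transcription factors, among them TCF1, GATA3, BCL11B and the E proteins. E proteins are basic helix-loop-helix factors that bind short sequences called E-boxes. PU.1, an ETS-family factor that drives myeloid development, is active in the earliest precursors and is switched off during commitment, and its silencing is a classical mark of this step. At the same time the genes of the CD3 complex, through which the T cell receptor signals, and the RAG recombinase genes, which cut the receptor genes for assembly, become active.

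The deposited lists held 68478 and 57729 peaks in DN2a replicates 1 and 2 and 61484 and 111582 in DN2b replicates 1 and 2, on the autosomes and the X chromosome. Read totals are not in the lists, so depth is unknown, and the longest list is that of DN2b replicate 2. All lists were therefore cut to the length of the shortest in the series, 32952 peaks, by the deposited score, a whole number of unstated meaning. The lowest score kept was 36 and 25 in the DN2a libraries and 31 and 65 in the DN2b libraries. Peaks tied at that score were kept in part, 233 of 1321 and 320 of 1352 in DN2a and 970 of 1228 and 790 of 846 in DN2b, and the next score below it was 1 unit lower in each. A site could thus be called gained although a DN2a peak tied at that score was left out by position, and lost in the reverse case. Levels below are ranks within these equal-length lists, as percentiles, where 100 is the strongest peak. At equal length, 82.8% of peaks overlapped between the DN2a libraries and 85.6% between the DN2b libraries, against 79.4% to 80.9% for the 4 pairs across the groups. All 12 housekeeping promoters listed had a peak in each of the 4 libraries.

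Short words in the peaks differed in frequency between gained and lost sites. An E-box, the word CACCTG, was more frequent in gained than in lost sites. The following 150 bp peaks lie near T cell genes and were gained or ranked higher at DN2b. They are printed from the plus strand of GRCm38, with this E-box (CACCTG, or CAGGTG where it lies on the minus strand) and the PU.1 word in capitals.
Bcl11b intron, gained, chr12:107926217-107926366: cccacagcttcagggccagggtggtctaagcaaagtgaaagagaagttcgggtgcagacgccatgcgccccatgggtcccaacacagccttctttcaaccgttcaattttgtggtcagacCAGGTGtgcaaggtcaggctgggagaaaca
Thy1 upstream, gained, chr9:44022217-44022366: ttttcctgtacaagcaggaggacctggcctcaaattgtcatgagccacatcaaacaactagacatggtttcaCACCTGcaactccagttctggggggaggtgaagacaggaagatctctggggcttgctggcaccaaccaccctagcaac
Zap70 intron, gained, chr1:36766537-36766686: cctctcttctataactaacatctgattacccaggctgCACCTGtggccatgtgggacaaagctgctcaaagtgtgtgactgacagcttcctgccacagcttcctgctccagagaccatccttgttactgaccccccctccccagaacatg
Rag2 upstream, shared and higher at DN2b, chr2:101551497-101551646: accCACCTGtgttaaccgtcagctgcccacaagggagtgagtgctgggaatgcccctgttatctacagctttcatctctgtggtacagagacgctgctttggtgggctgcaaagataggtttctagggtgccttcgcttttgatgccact
Rasgrp1 upstream, shared and higher at DN2b, chr2:117399617-117399766: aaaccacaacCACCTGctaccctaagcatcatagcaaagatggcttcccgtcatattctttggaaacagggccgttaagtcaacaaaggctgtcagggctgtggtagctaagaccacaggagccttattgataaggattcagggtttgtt
Each of these 5 peaks holds the E-box, and none holds the PU.1 word.

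The PU.1 word, GAGGAAGT, was more frequent in lost than in gained sites, although most lost sites lacked it. The following peaks near transcription factor and signalling genes were lost or ranked lower at DN2b and are shown with the same words in capitals (the PU.1 word reads ACTTCCTC on the minus strand).
Meis1 intron, lost, chr11:18970157-18970306: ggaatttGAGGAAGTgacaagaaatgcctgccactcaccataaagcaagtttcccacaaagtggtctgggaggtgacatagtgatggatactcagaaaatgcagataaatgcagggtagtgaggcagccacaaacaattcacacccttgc
Runx1 upstream, lost, chr16:92874137-92874286: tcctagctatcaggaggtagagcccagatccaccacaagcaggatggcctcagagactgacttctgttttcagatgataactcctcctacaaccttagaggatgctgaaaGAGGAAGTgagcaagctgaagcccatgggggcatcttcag
Gata3 upstream, lost, chr2:9965717-9965866: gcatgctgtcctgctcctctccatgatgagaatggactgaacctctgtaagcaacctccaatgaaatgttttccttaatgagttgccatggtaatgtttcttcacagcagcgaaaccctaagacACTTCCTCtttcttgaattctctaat
Runx3 upstream, shared and lower at DN2b, chr4:135054477-135054626: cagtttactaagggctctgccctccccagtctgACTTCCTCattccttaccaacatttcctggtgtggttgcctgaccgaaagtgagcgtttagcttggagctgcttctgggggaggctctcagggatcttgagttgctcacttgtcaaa
Prkcq intron, shared and lower at DN2b, chr2:11239677-11239826: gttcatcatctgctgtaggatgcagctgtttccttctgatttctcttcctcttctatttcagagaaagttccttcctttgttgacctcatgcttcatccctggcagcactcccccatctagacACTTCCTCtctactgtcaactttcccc
Each of these 5 peaks holds the PU.1 word, and none holds the E-box. These 10 peaks were picked to show the words, and the shares over all sites follow below.

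Gained sites made up 4.57% of the 44316 sites and lost sites 4.55%, while 22596 sites (51.0%) had a peak in all 4 libraries. Sites that changed were weak or intermediate by rank. The median percentile of gained sites was 26.3 and 23.4 in the DN2b libraries, and that of lost sites 24.3 and 23.3 in the DN2a libraries. Shared sites had medians between 64.5 and 65.1 in the 4 libraries. Only 8 and 6 gained sites lay above the 90th percentile in the DN2b libraries, and 2 and 1 lost sites in the DN2a libraries.

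Many gained and lost sites were changes of rank and not of presence. Below the equal-length cut, 1313 of the 2025 gained sites (64.8%) had a weaker peak in at least 1 DN2a library, and 1877 of the 2015 lost sites (93.2%) had a weaker peak in at least 1 DN2b library. The list of DN2b replicate 2 held a weaker peak at 91.5% of lost sites and the shorter list of DN2b replicate 1 at 64.5%. For gained sites the shares were 57.7% and 36.8% in DN2a replicates 1 and 2. Within each stage the longer list thus held the higher share. Between gained and lost sites, the part of list length in the shares cannot be told apart from that of the stage. With absence judged in the full lists, 712 gained and 138 lost sites were left.

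Gained sites lay near a gene start more often than lost sites. The midpoint was within 1 kb of the start of a protein-coding gene at 396 gained sites (19.6%, 95% Wilson interval 17.9 to 21.3%) and at 176 lost sites (8.73%, 7.58 to 10.1%), against 41.8% of shared sites. The median distance to the nearest start was 13.8 kb for gained, 22.9 kb for lost and 3.44 kb for shared sites. This order did not hold under every setting. On the lists as deposited the promoter share was 17.9% of gained and 20.2% of lost sites, and with absence judged in the full lists it was 17.6% and 34.1%. The order of the promoter shares thus changed with the choice of lists.

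The CD3 genes stood next to large differences. The Cd3g, Cd3d and Cd3e genes, which encode the gamma, delta and epsilon chains of CD3, lie side by side on chromosome 9. At the Cd3g promoter (chr9:44980397-44980566, centred 50 bp upstream of the start) the peak ranked at percentiles 24.3 and 34.3 in the DN2a libraries and 78.4 and 83.8 in the DN2b libraries. Just inside Cd3e (chr9:45009197-45009386, 336 bp from the start, in the non-coding gene Gm48720) the ranks were 34.5 and 54.6 in DN2a and 86.4 and 95.9 in DN2b. The groups did not overlap at either site, and neither site had a peak in the equal-length lists of the LSK, DN1 or IgG libraries. The Cd3d promoter (chr9:44981717-44981866, centred 5 bp from the start, in an untranslated region) was gained, at percentiles 17.8 and 21.5 in DN2b, with no peak even in the full DN2a lists. A further gained site lay 3.58 kb inside Cd3d, at 1.47 and 13.0. Upstream of Cd3e, a shared site 984 bp from the start ranked at 9.59 and 31.7 in DN2a and 45.7 and 56.2 in DN2b, again without overlap.

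**Figure D1:**
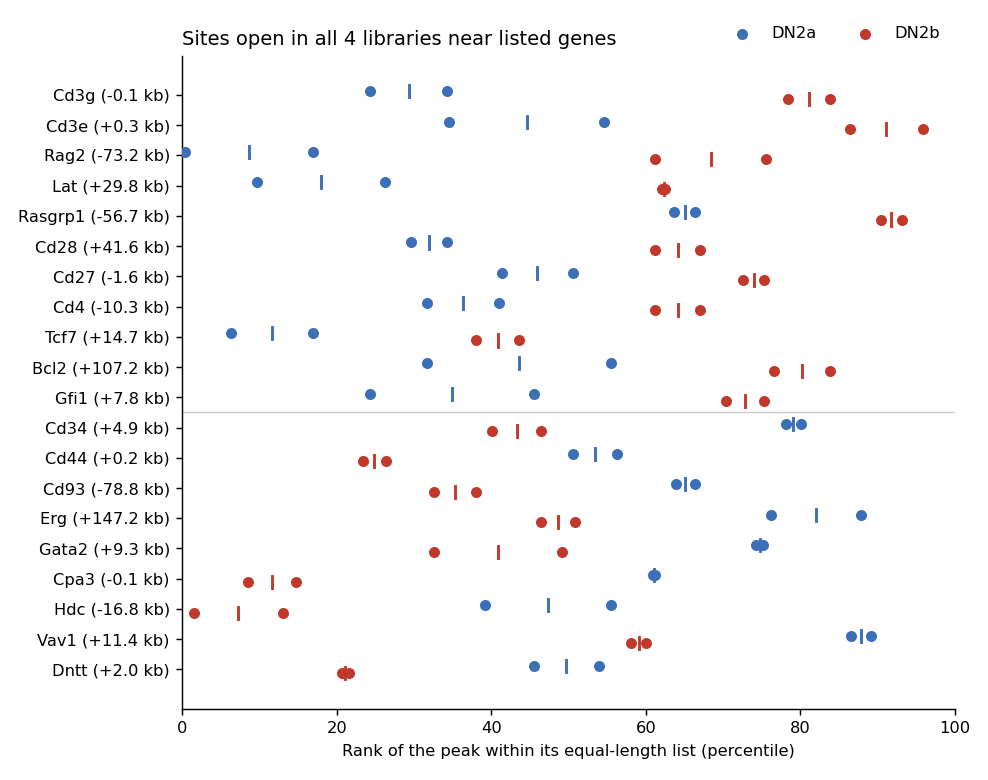
Rank within the equal-length list, as a percentile from 0 to 100, at sites near listed genes that had a peak in all 4 libraries, with the distance to the start of the named gene in brackets. Dots are libraries (2 DN2a, 2 DN2b) and short bars are group means. The groups do not overlap at any of these sites, which were chosen for a gap of at least 20 points, and the Cd3g promoter rises from 24.3 and 34.3 to 78.4 and 83.8. The genes were picked by hand, and other listed sites past the gap in either direction are not drawn. In the T lineage lists together, 12 shared sites passed the gap upwards and 8 downwards. In the progenitor lists together, 1 passed it upwards and 6 downwards.

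With 2 libraries against 2 there are 6 ways to divide the libraries, and the smallest two-sided exact permutation p for any single value is 0.333. No test was run on single sites, which were instead counted by the gap between the groups. Among shared sites, 431 ranked at least 20 percentile points higher in both DN2b libraries than in both DN2a libraries (1.91% of 22596), and 499 ranked at least 20 points lower (2.21%). The median difference between the group means was -0.14 points over all shared sites, with quartiles at -6.75 and 6.21. The counts of the gene lists below are read against these shares. The quartiles are a spread of single sites and give no spread for a list median.

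The widest gaps lay near genes of varied function. At the promoter of Itgb3, which encodes integrin beta 3, the peak ranked at 9.59 and 13.5 in DN2a and 73.7 and 81.8 in DN2b, the widest upward gap. A site 21.8 kb upstream of Ptpn1, a tyrosine phosphatase gene, rose from 18.8 and 13.5 to 76.6 and 84.9. A site nearest Bcl2l11, the gene of the cell death inducer BIM, rose from 6.24 and 2.76 to 69.3 and 63.7. None of the 3 had a peak in the other 8 libraries, and their gaps were wider than those at Cd3g and Cd3e. Among the widest downward gaps, a site 44.4 kb from Perp, a target of p53, fell from 86.3 and 75.4 to 11.5 and 21.5. A site 176 kb upstream of Cdkn2b, a cell cycle inhibitor gene, fell from 66.4 and 62.3 to 4.75 and 8.50. Both were also open in the 2 DN1 libraries.

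In the CD3 and pre-TCR list of 5 genes (Ptcra encodes the pre-TCR alpha chain), 2 of 8 shared sites passed the 20-point gap upwards and none downwards, and the median difference was 24.34 points (10.9 on the lists as deposited). The list had 2 gained sites of 23 (8.70%) and 1 lost site, 65.2 kb inside Cd247, the gene for the zeta chain. That lost site stood at percentiles 6.24 and 6.35 in DN2a. The Ptcra promoter had no peak in any of the 12 equal-length lists.

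The T cell surface list of 14 genes had 5 gained sites of 58 (8.62%) and 1 lost site. Among its 27 shared sites, 3 passed the gap upwards and none downwards, and the median difference was 6.60 points. Cd27, a costimulatory receptor, had a gained promoter (centred 11 bp upstream of its start, inside an intron record of the neighbouring gene Vamp1) at percentiles 17.8 and 21.5, with no peak in the full DN2a lists. A shared site 1.59 kb upstream of Cd27 ranked at 50.5 and 41.4 in DN2a and 72.6 and 75.3 in DN2b. The groups did not overlap there. Thy1, a surface glycoprotein of T cells, had a gained site 21.1 kb upstream at 53.7 and 58.8, which had no peak in the full DN2a lists. In an intron of Cd28, a costimulatory receptor of T cells, a shared site 41.6 kb from the start ranked at 29.6 and 34.3 in DN2a and 67.0 and 61.2 in DN2b. A site 10.3 kb upstream of Cd4, the coreceptor of helper T cells, ranked at 41.0 and 31.7 against 67.0 and 61.2. The lost site of this list was 81.3 kb from the Cd28 start, in an intron of a neighbouring gene, at 47.0 and 6.35.

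Il2ra encodes the CD25 chain on which both populations were sorted. A site centred 6 bp upstream of its start had a peak in all 4 libraries, at percentiles 78.1 and 73.2 in DN2a and 75.6 and 76.5 in DN2b, and in none of the other 8 equal-length lists. The groups overlapped. Beside it, 176 bp upstream, DN2b replicate 1 alone had a further peak at 81.0. A site 7.59 kb upstream was gained, at 49.2 and 17.4, with no peak in the full DN2a lists. A shared site at 6.55 kb ranked at 36.8 and 64.9 in DN2a and 76.6 and 79.6 in DN2b, without overlap.

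The V(D)J recombination list of 3 genes had no gained and 1 lost site of 12. Of its 8 shared sites 1 passed the gap upwards and 1 downwards, and the median difference was 2.25 points. Around Rag1 and Rag2, which encode the recombinase, a site 73.2 kb upstream of Rag2 (chr2:101551437-101551646) moved from percentiles 0.354 and 16.9 in DN2a to 75.6 and 61.2 in DN2b. It had no peak in the other 8 libraries. A site 12.2 kb from the Rag1 start, in an intron of B230118H07Rik, ranked at 15.8 and 45.5 in DN2a and 67.0 and 57.5 in DN2b. The Rag1 promoter had a peak in DN2a replicate 2 (41.4) and in both DN2b libraries (40.1 and 62.5), with overlap. At the other shared sites nearest Rag2 the groups overlapped, at 58.5 and 26.2 in DN2a against 43.9 and 17.4 in DN2b for the site 152 kb upstream and at 74.2 and 80.1 against 81.0 and 74.2 for the site 4.31 kb inside. Dntt, which encodes the terminal transferase that adds bases at receptor gene joints, went the other way. A site 12.7 kb upstream of Dntt was lost (43.2 and 6.35 in DN2a), and an intronic site 1.98 kb from the start fell from 53.9 and 45.5 to 20.7 and 21.5.

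Of the receptor genes themselves, the TCR alpha and delta span held 5 gained sites and 1 lost site of 34. The TCR gamma span held 4 gained and none lost of 28, and the TCR beta span none gained and 1 lost of 42. Over all 44316 sites the shares were 4.57% gained and 4.55% lost, and the small counts per span were not tested against them. The 5 gained sites of the alpha and delta span lay between chr14:53794617 and chr14:53804346, and none had a peak in the other 8 libraries. They stood at percentiles from 11.5 to 40.1 in DN2b replicate 1 and from 15.3 to 40.5 in replicate 2. Near the constant region gene Trac, in its intron, a shared site rose from 27.0 and 2.76 to 52.3 and 53.6. In the beta span a shared site (chr6:41225497-41225666) fell from 72.0 and 64.9 to 23.6 and 25.3. In the gamma span, the strongest gained site (chr13:19185557-19185706) stood at 60.8 and 57.5. Another gained site there (chr13:19311517-19311706) had a DN2a replicate 1 peak tied at the lowest score kept, which was left out by position.

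The 5 T lineage lists together (transcription factors, CD3 and pre-TCR, V(D)J recombination, TCR signalling and T cell surface) had 20 gained and 18 lost sites of 377 (5.31% and 4.78%), close to the shares over all sites. The T lineage transcription factor list gave a mixed picture, with 10 gained and 12 lost sites of 160 (6.25% and 7.50%), 4 shared sites past the gap in each direction and a median difference of 0.99 points. At Tcf7, which encodes TCF1, a site 17.2 kb into the gene was gained at 55.2 and 56.2, and a shared site at 14.7 kb rose from 6.24 and 16.9 to 38.0 and 43.6. The Tcf7 promoter peak ranked at 15.8 and 29.0 in DN2a and 14.7 and 8.50 in DN2b. Bcl11b, a factor that secures T cell identity, had a gained site in its gene 77.3 kb from the start (40.1 and 58.8) and a lost site at 4.66 kb (9.59 and 20.1). In the full lists, both DN2a libraries had a weaker peak at the gained site and both DN2b libraries at the lost site. The Bcl11b promoter was among the strong peaks of all 4 libraries, at 92.7 and 91.5 in DN2a and 95.2 and 87.8 in DN2b, and so did not separate the stages. Tcf12, which encodes the E protein HEB, had a gained promoter (31.2 and 27.2) and a gained intronic site (31.2 and 34.2). The promoter peak was also present in 7 of the other 8 libraries, whereas the intronic peak was in none of them. Satb1, a chromatin organizer, had a gained site 659 bp from its start at 14.7 and 23.4. Ikzf1, which encodes IKAROS, had a gained intronic site at 55.2 and 34.2 and a shared site that rose from 34.5 and 36.8 to 63.3 and 57.5.

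Runx1 and Runx3, which encode RUNX factors used both in progenitors and in T cells, accounted for most of the losses in that list. Runx1 had 7 lost sites and none gained, more lost sites than any other gene. The strongest of them by lower rank, 25.1 kb inside the gene, stood at 47.0 and 47.5 in DN2a and had peaks in 7 of the other 8 libraries. Runx3 lost a site 72.4 kb from its start (61.2 and 69.8 in DN2a) that had a peak in all 8 of the other libraries. A site 66.1 kb upstream of Runx3 fell from 69.9 and 80.1 to 31.2 and 42.1, while another at 42.3 kb upstream rose from 24.3 and 20.1 to 64.5 and 60.0. The first of these had peaks in all 8 of the other libraries and the second in none. Near Gata3 a site 75.8 kb upstream, inside an intron of Taf3, was lost (21.6 and 16.9), and no Gata3 promoter peak was found in any equal-length list.

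Among 15 TCR signalling genes, 3 sites of 124 were gained and 3 were lost (2.42% each), below the share over all sites, and 30 of 61 shared sites (49.2%) had a difference above 0. Zap70, the kinase that binds CD3, had a gained intronic site 4.81 kb from the start at 42 and 52.1. Plcg1, a phospholipase downstream of the receptor, had a gained intronic site at 31.2 and 40.5. The other gained site was 1.09 kb into Sh2d2a, which encodes an adaptor, at 17.8 and 35.8. Rasgrp1, which activates RAS, had a shared site 56.7 kb upstream that rose from 66.4 and 63.6 to 90.4 and 93.1. Lat, the scaffold of the receptor signal, had a site at 29.8 kb that rose from 9.59 and 26.2 to 62.1 and 62.5. Neither site had a peak in the other 8 libraries. In the opposite direction, a site 23.1 kb from the Zap70 start fell from 38.9 and 29.0 to 8.19 and 3.69. Prkcq (protein kinase C theta) lost 2 sites and had another that fell from 65.1 and 70.9 to 4.75 and 27.2. A site inside Vav1, an exchange factor used in many blood cells, fell from 89.2 and 86.6 to 58.1 and 60.0. The falling Prkcq and Vav1 sites had peaks in at least 6 of the other 8 libraries and the Zap70 site in 4.

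The IL-7 and STAT5 list of 12 genes had 8 gained and 4 lost sites of 111 (7.21% and 3.60%), 6 of 49 shared sites past the gap upwards and none downwards, and a median difference of 6.66 points. IL-7 was in the cultures of both groups. Negative regulators of cytokine signalling held most of these sites. Socs1 had 4 gained sites and 3 rising ones, all inside introns of the neighbouring gene Clec16a, between 54.4 and 117 kb from the Socs1 start. Among them a site at 54.4 kb rose from 12.8 and 49.4 to 79.3 and 74.2. Socs3 had 3 gained sites within 6.23 kb of its start, the strongest of them 1.97 kb upstream at 38.0 and 56.2. None of the 3 had a peak in the full DN2a lists, but 2 of them had peaks in LSK libraries. Bcl2, an inhibitor of cell death, had a gained intronic site at 23.6 and 8.50 and a shared intronic site that rose from 55.5 and 31.7 to 76.6 and 83.8. The 4 lost sites lay near Bcl2 (0.354 and 6.35 in DN2a), Jak1 (21.6 and 0.486), Stat5b (41.0 and 43.5) and Socs2 (50.5 and 36.8). Jak1 and Stat5b encode the kinase and the transcription factor of the pathway.

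The Notch list of 9 genes had 4 gained and 5 lost sites of 66 (6.06% and 7.58%), 3 of 27 shared sites past the gap upwards and none downwards, and a median difference of 4.75 points. Hes1, a direct target of Notch, had 2 gained sites and 2 rising sites. Its strongest promoter peak was high in both groups, at 93.3 and 97.0 in DN2a and 89.8 and 94.6 in DN2b. The promoter of Nrarp, another direct target, ranked at 73.2 and 68.6 in DN2a and at 45.7 and 69.6 in DN2b, so the groups overlapped. Dtx1, a further Notch target, had a gained intronic site 23.3 kb from the start at 31.2 and 40.5, with no peak in the full DN2a lists. Of the 5 lost sites, 3 were nearest Myc, a Notch target that drives growth, between 94.2 and 850 kb from its start. The others lay in the receptor genes Notch2 (6.24 and 16.9 in DN2a) and Notch3 (32.1 and 36.8). Another site near Myc, at 180 kb, rose from 9.59 and 2.76 to 58.1 and 67.4.

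**Figure D2:**
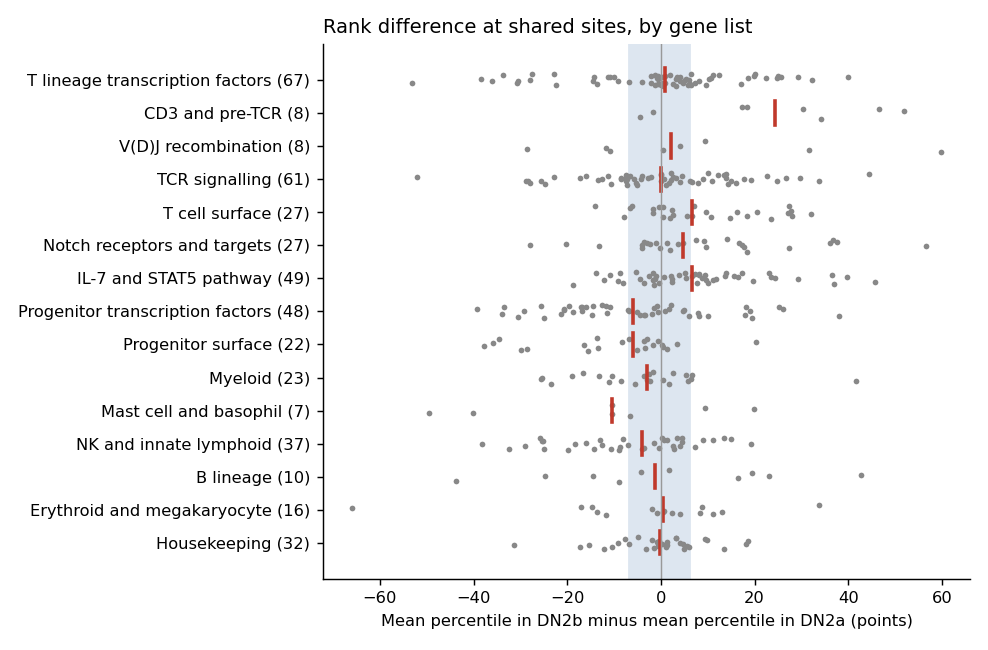
Difference between the DN2b and the DN2a mean percentile at sites with a peak in all 4 libraries, by gene list, with the number of sites in brackets. Grey dots are sites, red bars are list medians and the blue band spans the quartiles of all 22596 shared sites (-6.75 to 6.21). Medians include 24.34 for CD3 and pre-TCR, 6.66 for IL-7 and STAT5, 6.60 for T cell surface and -10.41 for mast cell and basophil. The band is a spread of single sites, so it does not show how far a list median can vary.

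In the equal-length lists, a smaller share of shared sites near progenitor genes than of all shared sites had a higher mean rank at DN2b. This difference was not tested. In the list of 18 progenitor transcription factors, 16 of 48 shared sites (33.3%) had a difference above 0, against 49.0% of all shared sites, and the median was -5.98 points. Only 1 of the 48 passed the 20-point gap upwards and 2 downwards (2.08% and 4.17%), near the 1.91% and 2.21% of all shared sites. In the list of 10 progenitor surface genes 5 of 22 (22.7%) were above 0, 4 passed the gap downwards and none upwards, and the median was -5.93 points. On the lists as deposited, where percentiles come from lists of unequal length, both medians changed sign, to 2.09 and 1.3 points. Gained and lost counts did not show a fall: the 2 lists together had 8 gained and 7 lost sites of 138 (5.80% and 5.07%), close to the shares over all sites. The surface list alone had 5 gained (12.2%) and 2 lost sites (4.88%) of 41, the highest gained share of any list here.

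Cd34, a stem and progenitor surface marker, had an intronic site 4.89 kb from the start that fell from percentiles 78.1 and 80.1 in DN2a to 40.1 and 46.4 in DN2b. Its ranks in LSK and DN1 libraries lay between 73.4 and 95.4. The Cd44 promoter, whose product was part of the sort, fell from 50.5 and 56.2 to 26.3 and 23.4, and ranked between 60.3 and 85.7 in the other 8 libraries. The Kit promoter did not separate the groups, at 68.8 and 63.6 against 59.4 and 75.3. Flt3, a progenitor cytokine receptor, lost an intronic site 7.63 kb from the start (36.8 and 29.0 in DN2a) that had a peak in all 8 of the other libraries. It also gained 2 intronic sites farther in, which had a peak in none of the 8. Cd44 likewise had a lost and a gained site in the same intron, close to each other (chr2:102867797-102867946 and chr2:102867517-102867666).

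Of the progenitor transcription factors, Meis1, a homeobox gene of stem cells, lost an intronic site 48.8 kb from the start at 45.1 and 45.5. That site ranked between 72.1 and 91.7 in the LSK and DN1 libraries and had no peak in the IgG libraries. Bcl11a, a factor of progenitors and B cells, lost its promoter peak (58.5 and 57.8 in DN2a), although weaker peaks remained in the full lists of both DN2b libraries. Mycn lost 2 distant sites, at 314 and 95 kb, both of them also open in the DN1 libraries and in no LSK library. Sites in introns of Gata2 (75.2 and 74.3 to 49.2 and 32.6) and Erg (76.2 and 87.9 to 50.8 and 46.4) fell as well. Against the list's negative median, a site inside Gfi1 rose from 24.3 and 45.5 to 70.4 and 75.3. At the promoter of Spi1, the gene for PU.1, the strongest peak ranked at 55.5 and 67.5 in DN2a and 38.0 and 43.6 in DN2b, without overlap, and between 51.6 and 94.0 in the other 8 libraries. An intronic site of Spi1 at 5.29 kb was gained, at 11.5 and 6.14.

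Genes of other blood lineages had between 0 and 4 gained and between 0 and 3 lost sites a list. The mast cell and basophil list, for cells that KIT-positive cultures can hold, had no gained and 1 lost site of 16 (6.25%), and 2 of 7 shared sites (28.6%) fell past the gap. The promoter of Cpa3, a mast cell protease gene also active in early precursors, fell from 61.2 and 60.9 to 14.7 and 8.50. An upstream site nearest Hdc, the histamine synthesis gene, fell from 55.5 and 39.2 to 1.47 and 13.0. The promoters of Fcer1a, Ms4a2 and Tpsb2, which define mast cells, had no peak in any of the 12 equal-length lists. The erythroid and megakaryocyte list had no gained and 3 lost sites of 35 (8.57%), and in it promoter peaks of the platelet genes Itga2b (76.2 and 73.2 in DN2a) and Pf4 (36.8 and 26.2) were lost. The promoters of Gata1, Klf1 and Vwf had no peak in any equal-length list. The myeloid list had 3 gained and 2 lost sites of 55, with the Itgam promoter lost from 9.59 and 9.99, and the promoters of Csf1r, Mpo and Elane had none in the 4 DN2 libraries. Over the whole list, 5 and 5 of 14 promoters had a peak in DN2a and 4 and 4 in DN2b, those of Cebpa, Cebpb and Irf8 in all 4 libraries. The NK and innate lymphoid list had 4 gained and 2 lost sites of 78, including both kinds near Id2. Its shared sites went the other way. None of 37 passed the gap upwards and 2 downwards, 15 had a difference above 0, and the median was -3.97 points. That median changed sign on the lists as deposited. The B lineage list had no gained or lost site of 15, while 1 of its 10 shared sites rose and 1 fell past the gap. The part of other cell types in the differences was not tested.

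By number of sites, Zmiz1 (7 gained), Junb (6) and Klf3 (6) led the gained genes, followed by genes with 5 each, among them Dad1, Mbp, Med13l, Ptpn3 and Sfi1. Zmiz1 encodes a coactivator of Notch1, and its gained sites lay between 4.57 and 427 kb from the start. The 6 sites of Junb, an AP-1 subunit, all lay within 3.95 kb of its start. Ptpn3 had no shared site, so every one of its 12 sites varied. The 5 gained sites counted for Dad1 are those of the TCR alpha and delta span. Sfi1 had 81 sites, 39 of them shared. For lost sites Runx1 (7) was followed by Arhgap24 and Pla2g4a with 5 each, and then by Bcl2l11, Cdk6, Chn2, Prex1, Prkcb, Svil, Tbl1xr1 and Zeb2 with 4. Some of these genes had sites of both kinds. Prex1 and Svil also had 2 gained sites each, and Bcl2l11, Chn2 and Tbl1xr1 had 1 each. Of the genes with most gained sites, Dad1 had 2 lost sites and Zmiz1, Med13l and Sfi1 had 1 each. The gained sites of Klf3, Med13l and Svil included some with a DN2a peak tied at the lowest score kept and left out by position. The counts are not divided by the sites of a gene, which numbered 28 for Zmiz1, 11 for Junb and 33 for Runx1. Arhgap24 encodes a RAC-inactivating protein, and its sites lay between 17.5 and 364 kb from the start. Zeb2, a repressor that binds E-boxes, lost a site 67.9 kb from its start and 3 sites between 829 and 1200 kb upstream.

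The strongest sites absent from the other group's full lists lay beside a peak of the other group. Of the 10 highest gained sites of this kind, 7 were promoters, those of Sp1, Safb2, Vamp1, Csnk1a1, Stat3, Tpp2 and 4921507P07Rik, and each of the 10 lay between 10 and 150 bp from a DN2a peak. The 10 highest lost sites, at Psph, Klf11, Fbxo47, Mepce, Klf10 and Adnp2 promoters among others, lay equally close to DN2b peaks. The first site of each set fell in the non-coding gene Gm26917 on chromosome 17 at a percentile of 100, and a gained and a lost site in an intron of Fnbp1 were 10 bp apart. When sites with any peak of the other group within 1 kb in the full lists were set aside, 401 gained and 36 lost sites remained. In that remainder the gained site 18.5 kb from Ccr7, a chemokine receptor of T cells, stood at 64.5 and 64.9, the site 3.95 kb upstream of Junb at 68.2 and 66.1, and a site in the TCR gamma span at 60.8 and 57.5. Those 3 were picked from it after their values were seen.

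In the equal-length lists, sites lost at DN2b were mostly open in earlier precursors, whereas gained sites were mostly not. In the 3 LSK libraries 54.5% ± 1.12 (SD, n = 3) of lost sites and 16.2% ± 0.442 of gained sites had a peak. In the 2 DN1 libraries it was 67.4% ± 3.20 (SD, n = 2) of lost and 15.0% ± 0.523 of gained sites. In the 3 IgG libraries it was 36.9% ± 3.14 (SD, n = 3) and 10.1% ± 1.03. The share was higher for lost sites in 8 of 8 libraries, by 37.5 percentage points on average (range 23.0 to 55.1, two-sided exact sign-flip test p = 0.00781, the smallest that 8 libraries allow). The test counts the 8 libraries as independent, although by the methods a DN1 library can share an LSK isolate with libraries of other stages. All 8 differences use the same gained and lost sites, so the p-value does not cover the variation between DN2 libraries. These libraries took no part in the choice of the sites, except that the shortest list, IgG replicate 2, set the common length. In the full lists of the DN1 libraries, a peak was found at 54.7% and 39.4% of gained and at 95.9% and 89.7% of lost sites. Leaving out DN2a replicate 1 from the calls brought the mean difference down to 11.9 points, and leaving out DN2a replicate 2 to 21.2, with the same direction in all 8 libraries.

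**Figure D3:**
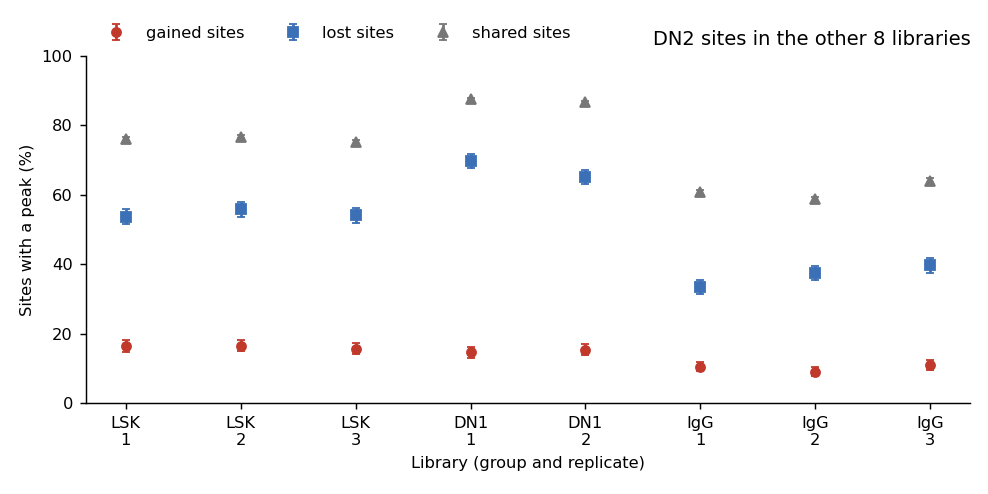
Percent of gained, lost and shared sites with a peak in each of the 8 libraries of other groups, at equal list length, with 95% Wilson intervals that cover counting error only. Lost sites lie between 33.5% and 69.7% and gained sites between 8.99% and 16.5%, so they do not overlap in any library.

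Site by site, 1303 gained sites (64.4%) had a peak in none of the 8 other libraries, compared with 231 lost sites (11.5%) and 1525 shared sites (6.75%). With the full lists of those libraries 703 gained sites (34.7%) still had none. Of the lost sites, 646 (32.1%) were open in all LSK and DN1 libraries, and 246 (12.2%) in both DN1 libraries and no LSK library. Sites open in all 3 LSK libraries and in neither DN1 library numbered 63 among gained (3.11%, 95% Wilson interval 2.44 to 3.96%) and 76 among lost sites (3.77%, 3.02 to 4.70%), with overlapping intervals.

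Sequence, which the choice of sites did not use, separated gained from lost sites. The E-box CACCTG was in the strongest 150 bp peak of 654 gained sites (32.3%, 95% Wilson interval 30.3 to 34.4%) and of 187 lost sites (9.28%, 8.09 to 10.6%), against 12.6% of shared and 14.8% of all sites. The word was counted on both strands, as were all others. At sites outside promoters the shares were 35.4% and 9.30%. Shared sites repeated the pattern by rank, with 34.1% of those at least 20 points higher at DN2b and 8.02% of those at least 20 points lower holding the word. These intervals cover the counting of sites only, since sites of the same libraries are not replicates.

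Among the 10 E-boxes of the form CANNTG, the word CACCTG had the highest ratio of gained to lost share, 3.48. CAGCTG, another word that E proteins bind, was in 19.01% of gained and 12.51% of lost sites, a ratio of 1.52. CACGTG had a ratio of 1.5 at low shares (4.54% and 3.03%). The remaining forms had ratios between 0.681 and 1. Of all 2080 words of 6 bases, counted without regard to strand, CACCTG had the largest excess in gained over lost sites, 23.0 percentage points, and the next was CCTCCC with 11.1. At the other end stood ACTTCC, the core of an ETS site, with -15.5 points, and GAGGAA with -14.6. Gained sites with no peak in the equal-length lists of the other 8 libraries held CACCTG more often (39.8%, 37.1 to 42.4%) than those with a peak in both DN1 libraries (16.6%, 11.9 to 22.6%).

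The PU.1 word GAGGAAGT was in 42 gained sites (2.07%, 1.54 to 2.79%) and 229 lost sites (11.4%, 10.05 to 12.82%), against 5.09% of all sites. It contains the ETS word GGAAGT, which was in 18.8% of gained and 34.2% of lost sites. Shared sites that ranked lower at DN2b held the PU.1 word in 15.2% of cases and those that ranked higher in 3.25%. By earlier openness, it was in 16.4% (14.3 to 18.6%) of lost sites open in both DN1 libraries and in 3.91% (2.49 to 6.10%) of lost sites open in neither.

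Smaller differences were seen for other words. The GATA word AGATAA was in 8.20% of gained and 12.8% of lost sites, and in 17.8% of shared sites that ranked lower. The STAT word TTCNNNGAA was in 8.35% of gained and 4.22% of lost sites. The NF-kB motif was rare but was in 39 gained sites (1.93%, 1.41 to 2.62%) and in 1 lost site (0.0496%), against 0.399% of all sites. RUNX, TGTGGT, was common in both, at 30.3% of gained and 33.5% of lost sites, and TCF1/LEF1, CTTTGAA, did not separate them, at 4.64% and 4.47%. With absence judged in the full lists the RUNX difference changed direction, from -3.23 to 4.62 points. Base composition differed too, with a mean GC content of 53.9% in gained, 49.8% in lost and 55.1% in all peaks, and its part in the shares was not tested. A word match is not evidence that a factor was bound.

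**Figure D4:**
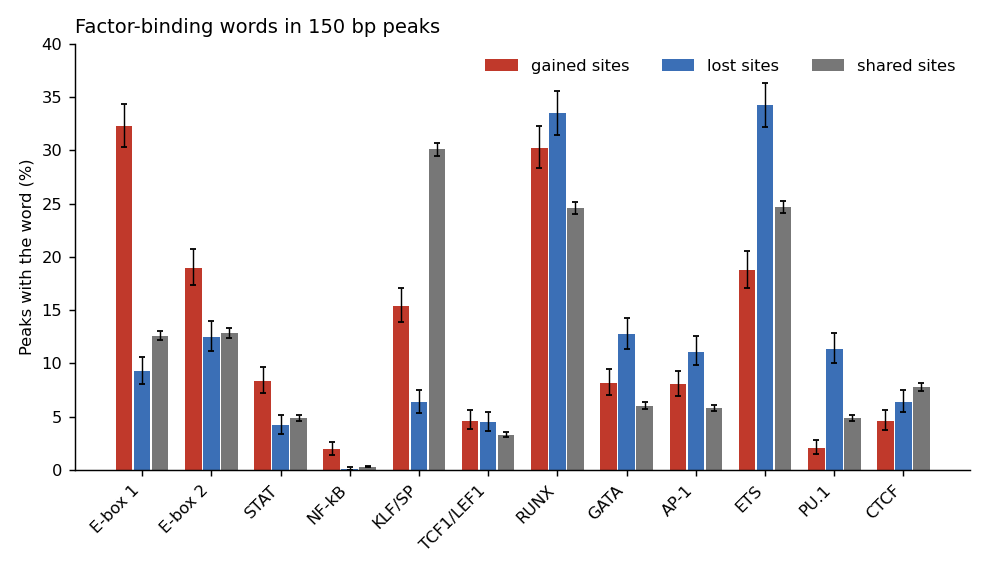
Percent of gained, lost and shared sites whose strongest 150 bp peak holds a word, with 95% Wilson intervals over sites. E-box 1 is CACCTG and E-box 2 is CAGCTG. Gained sites lead for E-box 1 (32.3% against 9.28%) and lost sites for the ETS word (34.2% against 18.8%) and the PU.1 word (11.4% against 2.07%).

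The same words were counted in every library's own peaks outside promoters, with no call of gained or lost sites. The DN2 lists are those that gave the gained and lost sites, so their values are not independent of the shares above. CACCTG was in 13.8% and 15.2% of these peaks in DN2a and 18.2% and 19.3% in DN2b, a difference of 4.25 percentage points between the means without overlap (two-sided exact permutation p = 0.333, the smallest this design allows). The other 8 libraries lay lower, between 11.4% and 11.9% in LSK and DN1 and between 6.70% and 7.67% in IgG. The PU.1 word went down, from 7.09% and 7.07% in DN2a to 5.51% and 5.63% in DN2b. It was in 10.2% and 10.9% in DN1, between 8.20% and 8.56% in LSK and between 7.98% and 9.68% in IgG. The NF-kB word was in 0.274% and 0.296% in DN2a and 0.535% and 0.507% in DN2b. RUNX words stood between 34.4% and 35.5% in all 4 DN2 libraries, with overlap.

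**Figure D5:**
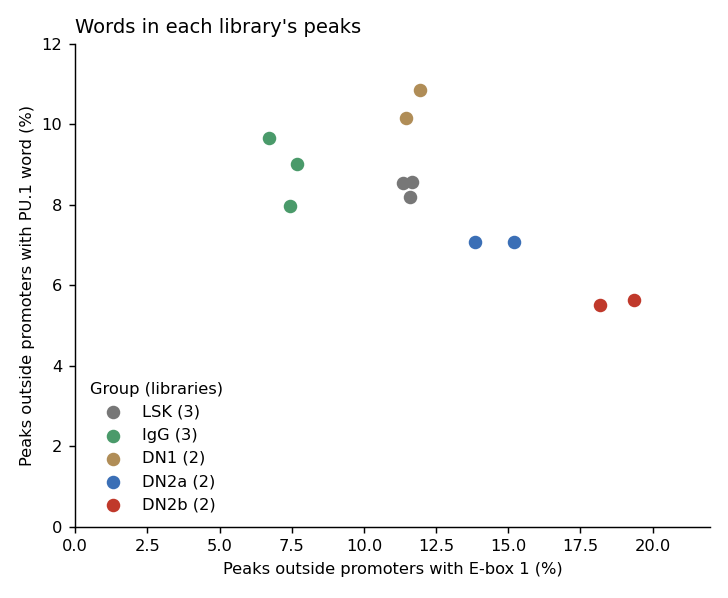
Percent of each library's peaks outside promoters that hold E-box 1 (CACCTG, horizontal axis) or the PU.1 word (vertical axis), at equal list length. Each dot is 1 of the 12 libraries. The DN2b libraries have the highest E-box share (18.2% and 19.3%) and the lowest PU.1 share (5.51% and 5.63%), and the DN2a libraries lie between them and the DN1 libraries on both axes.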

How the data were processed

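Per the labels, DNase-seq libraries of sorted or isolated mouse cells were built with a low-input method for single-stranded DNA. Per the study's methods and the submitters' processing notes, the authors aligned reads to mm10 with BWA 0.7.12, used SAMtools 1.2, and called 150 bp peaks with hotspot2 in each library, with no pooling. The deposited lists carry a score in column 5, a whole number up to 150 whose meaning is not given in the sources used here, and it served only for ranking. Scores saturate and tie, and ties at the cut were kept by position.

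The strongest 32952 peaks of each list on the autosomes and the X chromosome were kept, which was 48.1% and 57.1% of the DN2a lists and 53.6% and 29.5% of the DN2b lists. Peaks of the 4 lists overlapping by at least 1 bp were merged. A site was assigned to the nearest start of 21755 protein-coding genes (GENCODE M21, GRCm38) and called a promoter within 1000 bp. Words were counted on both strands in the strongest peak of a site. Groups were compared by exact permutation over libraries, and intervals are Wilson 95% intervals that cover counting error only. Python 3.11.15, numpy 2.4.6, pandas 2.3.3, scipy 1.17.1 and pysam 0.24.0 were used, and the scripts were tested on simulated data. Alternatives were list length, merging, promoter window, word window and leaving out each library.

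Members and the 15 gene lists (166 genes) were chosen with earlier results of these data known. Named sites were the 10 strongest gained and lost sites absent from the other group's full lists, the listed genes, and the genes with the most sites. The printed sequences were chosen after their words were counted, and the peaks in Gm26917, first by rank, are not printed. Some results that the naming rule selects are not reported here. Per the study's methods, replicates of a stage come from separate LSK isolates. They were numbered here in accession order, so a shared number pairs no libraries.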

Additional observations from a re-analysis of the deposited data

How the results depend on the processing

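No paired analysis was possible because replicates were numbered in accession order and the labels tie no DN2a library to a DN2b library of the same isolate. Counts and promoter shares differed between settings of list length and of absence, and the cause was not tested. With lists as deposited there were 6505 gained and 947 lost sites, promoter shares of 17.86% and 20.17%, 54 gained sites near T lineage genes and 3 lost near progenitor genes. With each equal-length list cut again to its upper 50% the values were 979, 948, 21.96% and 14.66%, with 14 progenitor sites lost. In the upper 50% of each deposited list there were 3292 gained and 430 lost sites, 16.05% of lost sites at promoters, and 40 T lineage and 2 progenitor sites. With absence judged in the full lists the values were 712, 138, 17.56%, 34.06%, 8 and 0. Without any peak of the other group within 1 kb, an alternative chosen after seeing the data like those on rank gaps below, they were 401, 36, 8.728%, 0.0%, 4 and 0. Merging peaks within 150 bp gave a promoter share of 6.66% for lost sites. Promoter windows of 500 bp gave 13.63% and 5.955%, and of 2.5 kb 26.81% and 13.7%. Assigning sites to listed starts within 100 kb gave 41 T lineage and 12 progenitor sites. In the settings here and below, lost T lineage and gained progenitor sites were not counted, so these counts show no direction. In the main setting the T lineage lists had 20 gained and 18 lost sites of 377. The progenitor lists had 8 gained and 7 lost sites of 138, and both were close to the shares over all sites.

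Leaving out each DN2 library in turn gave 3632 to 4302 gained and 3063 to 4593 lost sites, promoter shares of 20.68 to 23.79% and 10.19 to 16.18%, 37 to 53 T lineage sites and 9 to 21 progenitor sites. Fewer libraries have to agree there. Shared sites that ranked higher numbered 1391 at a gap of 10 points, 134 at 30, 768 with lists as deposited and 882 to 1666 with a library left out, and those that ranked lower 1546, 165, 76 and 1037 to 1467.

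The difference between gained and lost sites in the share with CACCTG was 28.3 points in 300 bp windows, 26.1 outside promoters, 29.6 without neighbouring peaks and 16.7 with lists as deposited. That for the PU.1 word was -11.3 in 300 bp windows, -13.9 without neighbouring peaks and -12.0 with lists as deposited. Some values changed sign. With lists as deposited these were the per-library promoter share (-1.38) and RUNX share (-0.792), and the rank medians of progenitor transcription factors (2.09), progenitor surface genes (1.3) and NK genes (2.63). The gained minus lost share of RUNX was 4.62 and that of KLF/SP -1.45 with absence judged in the full lists, and that of MYB 0.174 with the lists cut again to their upper 50%. That of CTCF was 0.00796 in 300 bp windows, 0.169 in full lists, 0.464 without neighbours and 3.83 as deposited. Lost sites exceeded gained sites in the other libraries under every alternative run, by 11.91 to 48.7 points. Depth is unknown, so absence of a peak is absence from a list.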
